A study of Mus musculus with 17 samples.

Results

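The adult haemoglobin genes Hba-a1, Hba-a2, Hbb-bs and Hbb-bt, together with Alas2, were followed through bulk RNA sequencing of mouse cortex. The 5 genes were chosen by name, as the rows of the deposited count table that carry these symbols, 1 row for each. They are 5 of the 56953 genes in the table, and all 5 were among the 23062 genes that passed the filter on low counts. Libraries were made from the prefrontal cortex of 8-month-old mice of 5 WT, 6 PS19 and 6 CgA-KO/PS19 animals on a B6C3F1/J background. PS19 mice (hTau in the labels) are heterozygous for a transgene of human Tau with the P301S mutation driven by the Prnp promoter. CgA-KO/PS19 mice (CgA-KO/hTau in the labels) carry the same transgene and lack Chga, the gene of chromogranin A (CgA), in the whole body from birth, so PS19 and CgA-KO/PS19 share the transgene and WT and PS19 share an intact Chga. The comparisons against PS19 ask what changes in the transgenic cortex when the transgene or Chga is absent, and both use the same 6 PS19 libraries.

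Haemoglobin is built from pairs of α- and β-globin chains, each holding a haem group that binds oxygen. Hba-a1 and Hba-a2 encode the adult α chain, Hbb-bs and Hbb-bt encode adult β chains, and Alas2 encodes the erythroid form of the first enzyme of haem synthesis. Mature mouse red cells have no nucleus, but young red cells still hold globin and Alas2 mRNA, so blood left in the vessels can bring these transcripts into a tissue library, and low levels of globin mRNA are also known from brain cells themselves. According to the Methods, tissue was collected under deep anaesthesia and death was completed by exsanguination. Perfusion is described there for microscopy and not for the tissue used for RNA. In these bulk samples, fewer blood cells and less globin RNA per cell cannot be told apart.

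Total counts ranged from 8838334 in WT replicate 4 to 227651681 in PS19 replicate 6. The submitters' tool writes about 3 counts for each fragment, so 0 counts were read as up to 9 counts, which is 0.0396 CPM (the count after scaling for depth) in the deepest library and 1.03 CPM in the shallowest. Chga was at 151.7 to 180.1 CPM in WT, 161.5 to 177.2 CPM in PS19 and 0 in all 6 CgA-KO/PS19 libraries, as the labels say. The Y-linked gene Ddx3y was at 49.8 CPM or more in replicates 1 to 3 of every genotype and at no more than 0.0582 CPM in all other replicates, so each genotype holds libraries of both kinds. The labels do not give the sex of a library, and the replicate number and the level of Ddx3y cannot be told apart here. Mitochondrial genes took 2.56% to 4.59% of counts in PS19, 3.53% to 7.94% in WT and 3.84% to 18.2% in CgA-KO/PS19.

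The 4 globin genes lie in 2 clusters. In the GENCODE M21 annotation of the mm10 genome, Hba-a1 is at chr11:32283511-32284465 and Hba-a2 at chr11:32296489-32297298, both on the plus strand, and Hbb-bs at chr7:103826534-103828096 and Hbb-bt at chr7:103812524-103813996, both on the minus strand. Alas2 is at chrX:150547375-150570638 on the plus strand. The 110 bases before each RefSeq start site (GRCm38.p6, 5′ to 3′ on the gene's strand) are printed because the 5 transcripts moved together across libraries. Capitals mark 4 motifs searched on both strands. The motif ATATAA was taken as a form of the TATA box and CCAAT as the box of that name. The motif CACCC is the core bound by factors such as KLF1, and GATAA is the core bound by GATA factors.
Hba-a1, chr11:32283562-32283671: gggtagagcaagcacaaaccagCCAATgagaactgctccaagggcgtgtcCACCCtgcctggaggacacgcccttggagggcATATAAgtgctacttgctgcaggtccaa
Hba-a2, chr11:32296382-32296491: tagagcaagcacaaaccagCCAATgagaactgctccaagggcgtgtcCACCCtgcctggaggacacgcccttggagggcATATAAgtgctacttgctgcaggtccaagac
Hbb-bs, chr7:103827929-103828038: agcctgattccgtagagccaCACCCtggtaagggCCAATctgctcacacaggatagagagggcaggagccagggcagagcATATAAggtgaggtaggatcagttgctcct
Hbb-bt, chr7:103813924-103814033: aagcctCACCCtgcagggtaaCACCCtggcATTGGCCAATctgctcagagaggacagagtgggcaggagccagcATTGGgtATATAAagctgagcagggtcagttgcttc
Alas2, chrX:150547307-150547416: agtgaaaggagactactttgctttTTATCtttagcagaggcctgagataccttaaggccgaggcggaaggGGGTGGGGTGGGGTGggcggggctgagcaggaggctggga

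Shifted by 3 bases, the Hba-a1 and Hba-a2 stretches were identical at 107 of 107 positions, whereas Hbb-bs and Hbb-bt, shifted by 1 base, were identical at 80 of 109 positions (73.4%). ATATAA and CCAAT were both present in the 4 globin stretches, against 0.871% of 32851 promoters of the same length. Alone, ATATAA was found in 4.09%, CCAAT in 20.2%, CACCC in 29.6% and GATAA in 9.43% of those promoters. In the globin genes ATATAA began 28 to 31 bases before the start. The Alas2 stretch held neither ATATAA nor CCAAT, but it held CACCC 3 times and GATAA once, all on the opposite strand. A match to these letters is a description and not a measured binding site.

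The paralogues also share transcript sequence, which bears on how reads were divided between them. Of all 100-base windows, the length of 1 read, 339 of the 600 in the Hba-a1 transcript (56.5%) occur unchanged in Hba-a2, and 331 of the 529 in the Hbb-bs transcript (62.6%) occur unchanged in Hbb-bt. The levels of the single paralogues therefore depend on how the authors' tools assigned shared reads, and whether the sum over a pair depends on it too was not tested. C57BL/6 mice carry another β-globin haplotype than C3H and 129 mice. The table has rows for Hbb-bs and Hbb-bt, the haplotype in the reference genome, and none for Hbb-b1 or Hbb-b2, and the haplotype of each animal was not tested.

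Summed over the 4 globin genes, haemoglobin transcripts took a small share of each library. The sum was 222.2, 235.3, 299.1, 148.5 and 104.2 CPM in WT replicates 1 to 5. In PS19 it had a lowest value of 221.5, a median of 273.3 and a highest value of 681.5 CPM, and in CgA-KO/PS19 the corresponding values were 115.4, 186.0 and 294.7 CPM. The PS19 replicate 1 library stood above all others and the next highest was PS19 replicate 2 with 368.7 CPM, while 3 of 5 WT and 2 of 6 CgA-KO/PS19 libraries fell inside the PS19 range. As a share of all counts, haemoglobin ranged from 0.0106% in CgA-KO/PS19 replicate 6 to 0.0702% in PS19 replicate 1.

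Per kilobase of transcript, which allows levels to be compared between genes, Hba-a2, Hbb-bs and Hba-a1 were close to each other and Hbb-bt was lower. In PS19 the levels were 165.9 ± 84.7 CPM per kb for Hba-a2, 163.1 ± 74.2 for Hbb-bs, 150.8 ± 76.7 for Hba-a1 and 67.2 ± 34.7 for Hbb-bt (mean ± SD, n = 6). The first 3 differed by less than the SD between libraries, which does not measure differences between genes of the same library. Alas2 was at 2.13 ± 1.04 CPM per kb in PS19. In WT (n = 5) Hbb-bs was highest with 99.2 ± 34.8 and Alas2 lowest with 1.36 ± 0.79 CPM per kb. In CgA-KO/PS19 (n = 6) the order was Hbb-bs with 115.4 ± 42.9, Hba-a2 with 87.4 ± 28.5, Hba-a1 with 78.8 ± 25.9, Hbb-bt with 37.5 ± 18.2 and Alas2 with 1.20 ± 0.33 CPM per kb. The order of genes was not tested.

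Hba-a1 was measured at 71.9, 73.9, 92.8, 37.2 and 34.9 CPM in WT replicates 1 to 5. Its lowest, median and highest levels were 70.1, 82.5 and 212.1 CPM in PS19 and 29.5, 52.5 and 75.9 CPM in CgA-KO/PS19. PS19 was highest on average, but 3 WT libraries and 2 CgA-KO/PS19 libraries were above the lowest PS19 library, so the genotypes overlapped. The levels of Hba-a2 followed those of Hba-a1 closely, from 30.3 to 81.0 CPM in WT, 60.3 to 184.9 CPM in PS19 and 25.3 to 66.4 CPM in CgA-KO/PS19.

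The β-globin gene Hbb-bs was at 62.9, 70.0, 89.3, 60.5 and 28.8 CPM in WT replicates 1 to 5. In PS19 its lowest, median and highest levels were 65.9, 83.9 and 191.9 CPM, and in CgA-KO/PS19 they were 48.0, 64.4 and 108.4 CPM. Here 3 of 6 CgA-KO/PS19 libraries, replicates 1 to 3, lay within the PS19 range. Hbb-bt was at 26.0, 27.7, 36.04, 16.7 and 10.2 CPM in WT replicates 1 to 5. Its levels ran from 25.1 over a median of 37.6 to 92.6 CPM in PS19 and from 12.5 over 24.0 to 45.5 CPM in CgA-KO/PS19. The 2 lowest Hbb-bt values of the study, in WT replicate 5 and CgA-KO/PS19 replicate 6, both came from libraries without Ddx3y.

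Alas2 was far less abundant, at 4.60, 3.44, 3.68, 1.03 and 1.12 CPM in WT replicates 1 to 5. Its levels had a lowest value of 2.74, a median of 3.59 and a highest value of 8.36 CPM in PS19, against 1.604, 2.29 and 3.28 CPM in CgA-KO/PS19. The genotypes again overlapped, with 3 WT and 2 CgA-KO/PS19 libraries above the lowest PS19 library. The WT replicate 4 value rests on 9 counts, about 3 fragments, and lies at the level that 0 counts would allow in that library, whereas Alas2 had at least 69 counts in every other library.

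**Figure D1:**
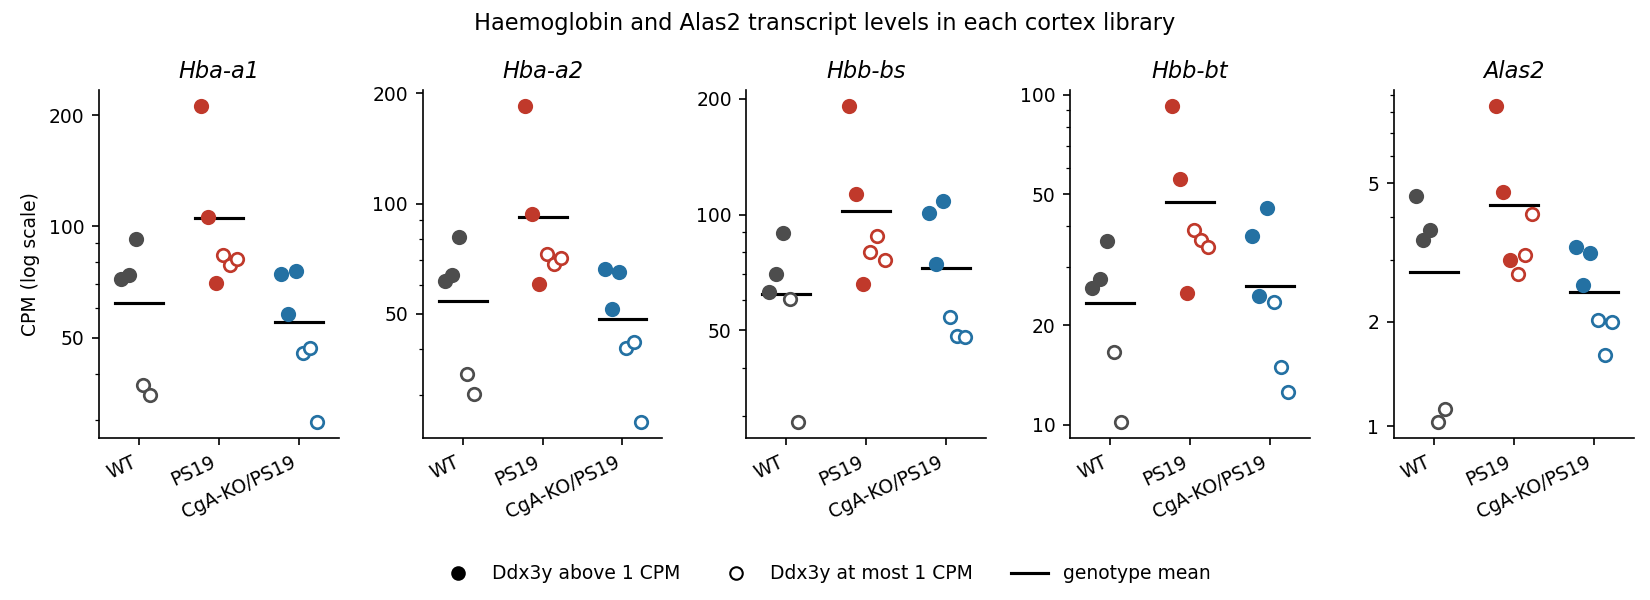
Levels of the 5 genes in CPM on a logarithmic axis, 1 point per library by genotype in the order of replicate numbers, filled where Ddx3y was above 1 CPM and open where it was not, with a line at each genotype mean. PS19 replicate 1 is the highest library for every gene. Open points lie below filled points in WT and CgA-KO/PS19, in places by a thin margin, for all 5 genes, which move together.

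Compared with genes of similar abundance, the globin transcripts varied widely among animals of 1 genotype. The SD of log2 CPM within genotypes was 0.58 for Hba-a1, 0.57 for Hba-a2, 0.56 for Hbb-bs and 0.69 for Hbb-bt. Among tested genes within a 2-fold range on either side of each mean level, 3750 to 4760 genes per globin gene, the median SD was 0.22 to 0.24. Between 95.5% and 96.9% of those genes had a smaller SD than the globin gene. For Alas2 the SD was 0.67, the median of similar genes 0.38, and 85.4% of them had a smaller SD.

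All 5 genes had lower fitted levels in WT than in PS19, but none passed the threshold of an adjusted p under 0.05 in edgeR's quasi-likelihood test over the 17 libraries. The log2 fold changes were -0.76 ± 0.32 (SE) for Hba-a1, -0.76 ± 0.32 for Hba-a2, -0.72 ± 0.31 for Hbb-bs, -1.01 ± 0.39 for Hbb-bt and -0.60 ± 0.37 for Alas2. The corresponding edgeR adjusted p-values were 0.18, 0.18, 0.20, 0.14 and 0.37. The median of the 5 was -0.76, beside -0.01 over all genes tested. In this comparison 1.95% of all tested genes passed as lower and 3.95% as higher. At an unadjusted p under 0.05 the fold was negative for 4 of the 5, all but Alas2, a class that held 9.79% of all genes. The rule of the Methods, which asks for an absolute log2 fold change above 0.5 and p below 0.01 without adjustment, called 0 of 5 and 2.81% of all genes as lower. DESeq2 called 0 of the 5, with 4.14% of all genes lower, and limma voom with sample quality weights called 0, with 8.1% of all genes lower.

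CgA-KO/PS19 gave a similar picture against PS19, with the α-globin genes nearest to the threshold. Here edgeR's log2 fold changes were -0.94 ± 0.31 (SE) for Hba-a1 and -0.92 ± 0.30 for Hba-a2, with adjusted p-values of 0.060 and 0.061. The fold of Hbb-bs was the smallest, with -0.50 ± 0.29 and an adjusted p of 0.28 in edgeR, and Hbb-bt and Alas2 had -0.84 ± 0.36 and -0.83 ± 0.35 with adjusted p-values of 0.14 and 0.13. The median over the 5 was -0.84, beside 0.03 over all genes tested. None of the 5 passed with edgeR, where 4.22% of all genes passed as lower and 5.5% as higher. An unadjusted p under 0.05 with a negative fold was found for 4 of the 5, all but Hbb-bs, and for 12.9% of all genes. Hba-a1 and Hba-a2 met the rule of the Methods, as did 3.44% of all genes in the lower direction. DESeq2 also called these 2 genes as lower, with adjusted p-values of 0.027 and 0.028, beside 6.24% of all genes, whereas limma voom called 0 of 5, beside 12.4% of all genes. Leaving out WT replicate 4, the shallowest library, also brought both α-globin genes past the threshold in edgeR, with adjusted p-values of 0.043 and 0.046. The share of all genes called lower rose to 7.31% in that fit, and the fold of Hba-a1 stayed at -0.94.

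Between CgA-KO/PS19 and WT the 5 genes differed little. Their log2 fold changes in edgeR lay between -0.22 ± 0.37 (SE) for Alas2 and 0.22 ± 0.31 for Hbb-bs, with adjusted p-values of 0.74 to 0.84. None passed, where 2.89% of all genes passed as lower and 3.56% as higher. None had an unadjusted p under 0.05 in either direction, which 21.7% of all genes had, and none was called by DESeq2 (11.5% of all genes in either direction) or limma voom (10.7%).

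One library, PS19 replicate 1, had a large part in the size of these differences. Without it the log2 fold changes against PS19 in edgeR were between -0.70 and -0.31 in WT and between -0.61 and -0.22 in CgA-KO/PS19, and the numbers with an unadjusted p under 0.05 fell to 0 and 2 of 5. Over all genes, 4621 and 5963 of 22989 had such a p in either direction, beside 4825 and 6420 of 23062 with all libraries. The 10 fold changes against PS19 all stayed negative when any 1 library was left out. With the share of mitochondrial counts as a covariate, chosen after the data were seen, the SE of the CgA-KO/PS19 comparison rose, for Hba-a1 from 0.31 to 0.56, and its fold changes remained negative with no unadjusted p under 0.05. The covariate lowered such counts over all genes as well. In either direction 1505 of 23062 genes had an unadjusted p under 0.05, against 6420 without the covariate, and genes called lower fell from 974 to 22. The part of the mitochondrial share in the result was not tested further.

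In WT and CgA-KO/PS19 the libraries with Ddx3y lay above those without it for the 5 genes, which move together. Some margins were thin, with 62.9 against 60.5 CPM for Hbb-bs in WT and 24.5 against 23.5 CPM for Hbb-bt in CgA-KO/PS19. The groups are small, and the share of all genes that separate in this way was not computed. For Hba-a1 the 3 WT libraries with Ddx3y were at 71.9 to 92.8 CPM and the 2 without at 34.9 and 37.2 CPM, and in CgA-KO/PS19 the 3 with Ddx3y were at 58.0 to 75.9 CPM and the 3 without at 29.5 to 47.0 CPM. In PS19 there was no such separation. The 3 libraries without Ddx3y, at 78.8 to 83.6 CPM, lay inside the range of those with it, and the lowest summed haemoglobin of PS19, 221.5 CPM, came from replicate 3, which had Ddx3y. In an edgeR fit with log2(CPM + 1) of Ddx3y as a covariate, the term was positive for all 5 genes, at 0.13 to 0.16 log2 units of the gene per log2 unit of Ddx3y. The unadjusted p-values of this term were 1.8e-04 to 7.8e-04, but over all genes its adjusted p-values in edgeR were 0.23 to 0.33, so it did not pass for any of them.

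In that fit the SE of the fold changes was smaller, for Hba-a1 in CgA-KO/PS19 0.20 in place of 0.31, and more of the 5 genes passed. Against PS19, WT was lower for Hba-a1, Hba-a2, Hbb-bs and Hbb-bt, with edgeR adjusted p-values of 0.022, 0.025, 0.047 and 0.020, and Alas2 had 0.078. In CgA-KO/PS19 the genes called lower were Hba-a1, Hba-a2, Hbb-bt and Alas2, with 0.014, 0.015, 0.046 and 0.0496, and Hbb-bs had 0.13. Thus 4 of 5 were called in each comparison, where 2.33% and 4.42% of all genes were called as lower. The fold changes themselves moved little, for Hba-a1 from -0.76 to -0.88 in WT and from -0.94 to -0.92 in CgA-KO/PS19. The part of Ddx3y, of sex, or of anything else that separates replicates 1 to 3 from the others, was not tested beyond these fits.

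Within replicates 4 and above, where Ddx3y was at most 1 CPM, summed haemoglobin was 263.2 to 275.2 CPM in PS19. It was 104.2 to 148.5 CPM in WT and 115.4 to 163.7 CPM in CgA-KO/PS19. The PS19 range lay above the others, but the groups are small. The share of all genes that separate in this way was not computed. The log2 fold changes in edgeR, fitted to these 8 libraries alone, were -1.63 to -0.91 in WT (n = 2) against PS19 (n = 3), with 4 of 5 genes called lower beside 2.86% of all genes, all but Hbb-bs. They were -1.12 to -0.71 in CgA-KO/PS19 (n = 3), where the adjusted p-values were 0.052 to 0.26 and 0 of 5 passed, beside 0.263% of all genes called lower. Within replicates 1 to 3 of each genotype (n = 3 each) the fold changes were negative as well, -0.95 to -0.45 in WT and -0.88 to -0.37 in CgA-KO/PS19. No adjusted p passed, with edgeR values of 0.30 to 0.57 in WT and 0.075 to 0.43 in CgA-KO/PS19. Over all genes of that fit, 30 of 21613 were called lower in WT and 3499 of 21613 in CgA-KO/PS19. Whether the differences themselves differ between the 2 sets of replicates was not tested.

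**Figure D2:**
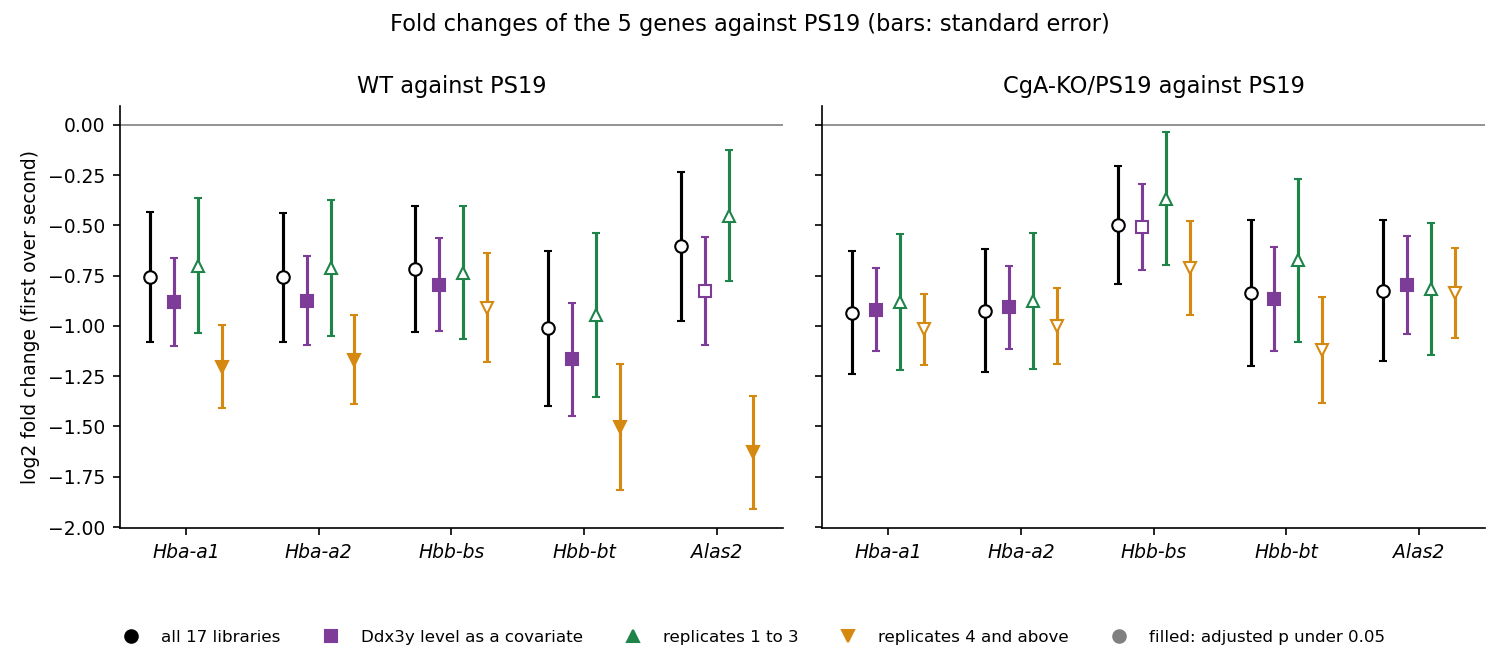
Log2 fold change of each gene with its standard error in WT (left) and CgA-KO/PS19 (right) against PS19, fitted by edgeR to all 17 libraries, with the Ddx3y level as a covariate, and within replicates 1 to 3 or 4 and above. All values lie below 0, and filled symbols mark the adjusted p-values under 0.05.

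Ratios between genes of the same library set aside its total haemoglobin level. They were compared with exact two-sided permutation tests of the mean log2 ratio. Across 4 ratios and 3 comparisons, 12 tests, the smallest adjusted p was 0.12, so none passed. The smallest p that the design allows is 0.0022 for 6 against 6 libraries and 0.0043 for 5 against 6.

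The ratio of Hbb-bt to Hbb-bs counts was 0.41, 0.40, 0.40, 0.28 and 0.35 in WT replicates 1 to 5. Its lowest, median and highest values were 0.38, 0.47 and 0.49 in PS19 and 0.26, 0.35 and 0.43 in CgA-KO/PS19. PS19 was highest on average, and the genotypes overlapped. On the log2 scale PS19 had a mean of -1.15 ± 0.15 (SD), WT of -1.46 ± 0.24 and CgA-KO/PS19 of -1.52 ± 0.28. The difference from PS19 was -0.30 in WT (exact permutation p = 0.035, adjusted p = 0.14) and -0.37 in CgA-KO/PS19 (exact permutation p = 0.017, adjusted p = 0.12). Within replicates 1 to 3 these differences were -0.15 and -0.28, and within replicates 4 and above -0.53 and -0.46.

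The summed α-globin counts exceeded the summed β-globin counts in most libraries. The α to β ratio was 1.501, 1.41, 1.39, 0.93 and 1.67 in WT replicates 1 to 5. In PS19 it had a lowest value of 1.19, a median of 1.35 and a highest value of 1.43, against 0.91, 1.06 and 1.40 in CgA-KO/PS19. The ratio was below that of all PS19 libraries in 5 of 6 CgA-KO/PS19 libraries, and replicate 5 was the exception. The difference between CgA-KO/PS19 and PS19 was -0.30 on the log2 scale (exact permutation p = 0.019, adjusted p = 0.12), and that between CgA-KO/PS19 and WT was -0.35 (exact permutation p = 0.069, adjusted p = 0.21). WT and PS19 differed by 0.04, less than the spread between libraries. Within replicates 1 to 3 the CgA-KO/PS19 difference from PS19 was -0.40 and within replicates 4 and above it was -0.21.

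Hba-a2 was counted at a nearly fixed share of Hba-a1. PS19 had a log2 ratio of -0.20 ± 0.01 (SD), WT of -0.19 ± 0.04 and CgA-KO/PS19 of -0.19 ± 0.03, and the ratio spanned -0.23 to -0.12 over all libraries. Shared reads were divided between these paralogues by the authors' tools, so the constancy of this ratio does not show how the 2 genes were transcribed. Alas2 counts were 1.31%, 1.26% and 1.25% of the summed globin counts on average in WT, PS19 and CgA-KO/PS19. Across libraries WT ran from 0.69% to 2.07%, PS19 from 0.997% to 1.55% and CgA-KO/PS19 from 1.05% to 1.73%, and the 3 log2 differences were between -0.03 and 0.005 with exact permutation p-values of 0.87 to 0.97.

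**Figure D3:**
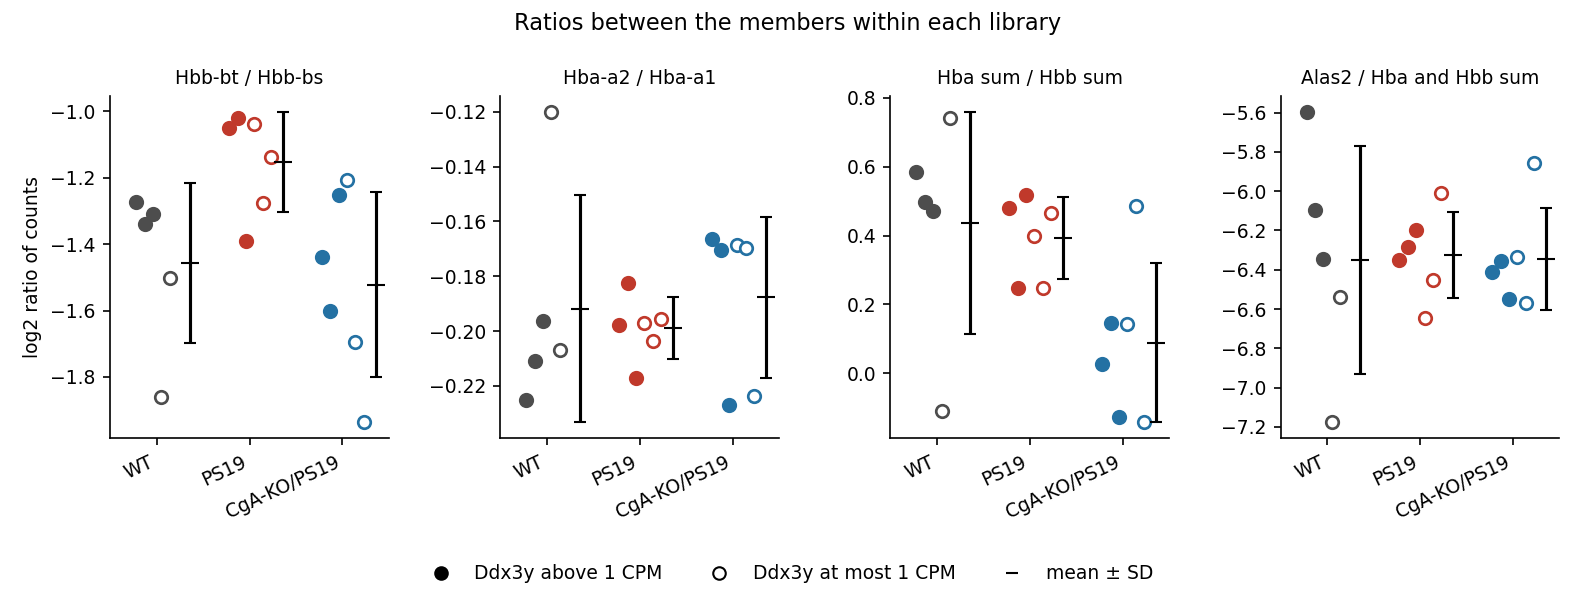
Log2 ratios of counts between the genes in each library, by genotype, with mean ± SD beside the points and filled points where Ddx3y was above 1 CPM. Each panel has its own axis. The Hbb-bt to Hbb-bs ratio is highest on average in PS19, and 5 of 6 CgA-KO/PS19 libraries have an α to β ratio below the PS19 libraries.

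The 5 genes rose and fell together across the 17 libraries. In 10 pairs, Pearson's r of log2 CPM ran from 0.82 for Hbb-bs with Alas2 to 0.999 for Hba-a1 with Hba-a2, and Spearman's rho from 0.75 to 0.998 for the same pairs. All 10 passed in a permutation test with 100000 resamples, with adjusted p-values of 2e-05 to 1.7e-04 for r and 1.7e-05 to 6.9e-04 for rho. Between the α- and β-globin genes, which lie on different chromosomes, r was 0.89 to 0.95. For Alas2 with the α-globin genes it was 0.90 for Hba-a1 and 0.89 for Hba-a2.

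The relations were then computed on fewer libraries. Without the 2 libraries farthest from the median of the first gene of each pair, r was 0.62 to 0.999, the lowest again for Hbb-bs with Alas2. With each genotype mean removed, r was 0.77 to 0.999 and all 10 pairs passed the permutation test with adjusted p-values of 2.5e-05 to 4.1e-04. With the level of Ddx3y removed as well, an alternative chosen after the data were seen, r was 0.51 for Hbb-bs with Alas2, 0.62 to 0.71 for the other Alas2 pairs and 0.79 to 0.997 among the globin genes. Among the 9 libraries with Ddx3y above 1 CPM r was 0.70 to 0.999, and among the other 8 it was 0.73 to 0.999. Leaving out both PS19 replicate 1 and WT replicate 4 gave 0.81 to 0.999.

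**Figure D4:**
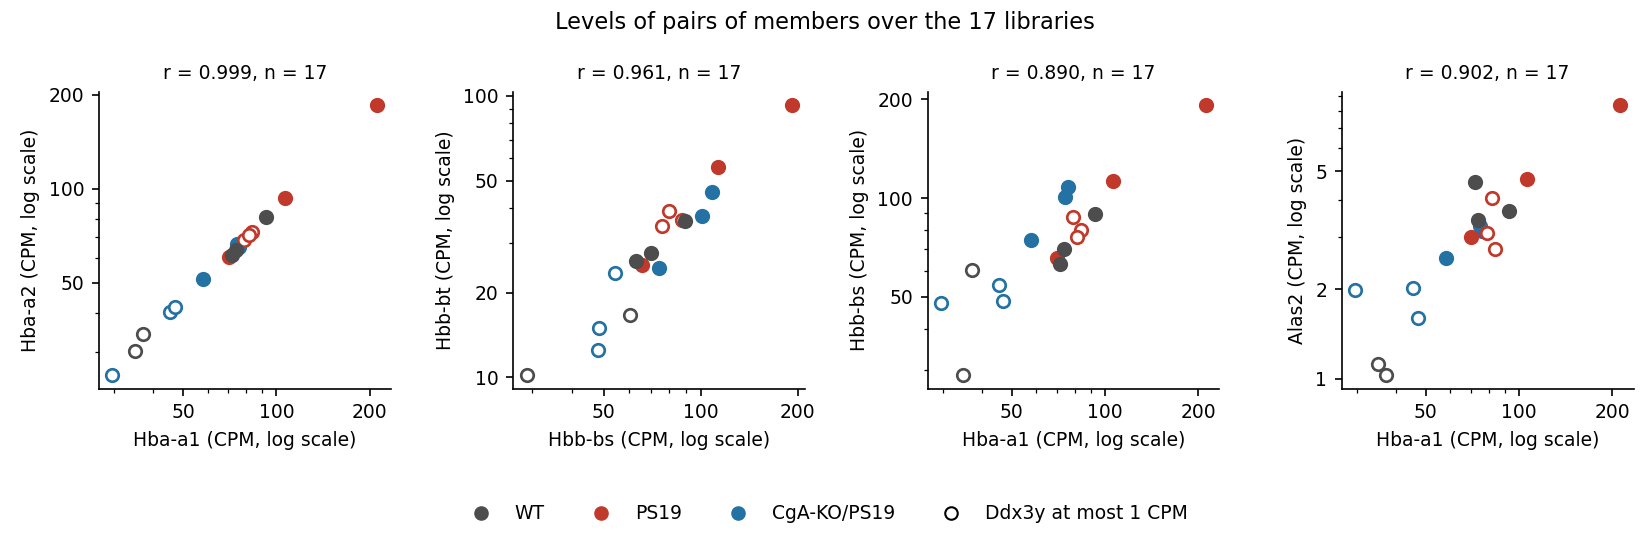
Levels in CPM on logarithmic axes for 4 of the 10 pairs of genes, 1 point per library, coloured by genotype and open where Ddx3y was at most 1 CPM, with Pearson's r of log2 CPM above each panel. The Hba-a1 and Hba-a2 points lie almost on a line, and the other 3 pairs scatter more widely around their trend.

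Outside the 5, the genes whose levels were most like the mean of the 5 after removing genotype means were sought among 15474 tested genes with at least 1 CPM on average. The 10 highest were Smim32 (r = 0.85), Emg1 (0.83), Ntan1 (0.81), Clic5 (0.80), Prdx4 (0.80), Tent5c (0.80), Sirt3 (0.79), Gnb4 (0.79), Gm48226 (0.79) and Rbm7 (0.79), over 17 libraries. All 10 lay below the 5 genes themselves, which reached 0.91 to 0.98 with their own mean. Ddx3y, Eif2s3y, Kdm5d and Uty of the Y chromosome had r of 0.76 to 0.77, and Ddx3y ranked 22 in that order with the 5 genes counted. Xist of the X chromosome had an r of -0.78. These are descriptions of the order and carry no test.

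Other genes of red cells and of haem were then examined from fixed lists, whose choice was made with earlier results of these data known. Among 9 other globins, the embryonic genes Hba-x, Hbb-bh1 and Hbb-bh2 had 0 counts in every library, and Hbb-y had counts in 3 libraries and at most 8. Of the 5 tested, 0 passed in WT and 1 passed in CgA-KO/PS19 against PS19. This was Cygb, the gene of cytoglobin, which fell to 32.1 to 51.5 CPM in CgA-KO/PS19 from 52.8 to 62.1 CPM in PS19 (log2 fold change -0.45 ± 0.13 SE, edgeR adjusted p = 0.040). Ngb, the gene of neuroglobin, had 0.70 and 0.63 with edgeR adjusted p-values of 0.295 and 0.255.

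Of 14 genes of haem synthesis, all tested, 0 passed in WT and 1 passed as lower in CgA-KO/PS19. Alas1, the housekeeping counterpart of Alas2, was at 39.69 to 44.55 CPM in WT, 40.73 to 48.50 CPM in PS19 and 26.25 to 43.40 CPM in CgA-KO/PS19, where its log2 fold change was -0.42 ± 0.11 (SE) and its edgeR adjusted p 0.030. In WT it was -0.06 with an adjusted p of 0.81. Alad, the next enzyme of the pathway, had log2 fold changes of -0.37 for WT and -0.40 for CgA-KO/PS19, with edgeR adjusted p-values of 0.19 and 0.097. The list medians were -0.05 and -0.03. Fech, the last enzyme, had fold changes of 0.02 and 0.03.

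Red cell membrane genes ranged from undetected to abundant, and the list summed to 720.2 to 1219 CPM. Rhag, the gene of the Rh-associated glycoprotein, had 0 counts in all libraries. Slc4a1, the gene of the band 3 anion exchanger, was at no more than 0.68 CPM in WT, 1.55 CPM in PS19 and 0.28 CPM in CgA-KO/PS19, with log2 fold changes of -0.99 and -1.23 and edgeR adjusted p-values of 0.55 and 0.30. Of 12 tested of 17 genes, 1 passed in each comparison, Ank1, the gene of ankyrin 1, which neurons also express. It was at 66.7 to 97.5 CPM in PS19, above 34.98 to 47.4 CPM in WT and 36.8 to 51.0 CPM in CgA-KO/PS19, with log2 fold changes of -0.89 and -0.70 and edgeR adjusted p-values of 3.2e-04 and 0.0016. The medians of the 12 were -0.35 and -0.38, with 10 and 11 of 12 folds below 0.

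Among erythroid regulators and enzymes some were not detected and others were abundant. Gata1, the master regulator of the erythroid lineage, had 0 counts in every library, and Klf1 had at most 23. The table held 16 of these genes, and 9 were tested. In WT 2 passed as higher, Tal1 and Car1, and 1 as lower, Zfpm1, and in CgA-KO/PS19 1 passed as higher, Tal1. Tal1, a transcription factor, was at 0.60 to 0.98 CPM in PS19, below 1.22 to 1.79 CPM in WT and 1.22 to 2.63 CPM in CgA-KO/PS19, with log2 fold changes of 0.85 and 1.17 and edgeR adjusted p-values of 0.030 and 0.0046. Car1, a carbonic anhydrase, was at 0 in all PS19 libraries and at most 0.45 CPM in WT, on at most 29 counts. Zfpm1, a partner of GATA factors, was at 14.8 to 25.8 CPM in WT and 30.3 to 38.2 CPM in PS19.

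Among 13 genes that clear free haemoglobin and haem, 0 passed in WT and 1 passed in CgA-KO/PS19. Fth1, the ferritin heavy chain, rose to 750 to 1503 CPM in CgA-KO/PS19 from 682 to 808 CPM in PS19 (log2 fold change 0.60 ± 0.13 SE, edgeR adjusted p = 0.012). Hmox1, the inducible haem oxygenase, had -0.11 and -0.02 with adjusted p-values of 0.69 and 0.95. Cd163, the haemoglobin scavenger receptor of macrophages, had 0.64 and 0.47 with 0.33 and 0.39. Hp and Hpx, which bind haemoglobin and haem in plasma, were at no more than 0.35 and 0.57 CPM.

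Markers of other blood cells were measured beside the haemoglobin genes. Of the platelet genes Pf4, Ppbp and Gp1ba, none passed, with log2 fold changes between -1.002 and 0.34 against PS19. Of 7 tested of 10 platelet genes, 1 other gene passed as lower in WT and 0 passed in CgA-KO/PS19 in edgeR, with 1 and 0 at an unadjusted p under 0.05. The platelet medians were -0.67 and -0.33, with 6 and 5 of 7 folds below 0. The neutrophil genes S100a8, S100a9 and Ngp reached at most 1.13 CPM. Of 7 tested of 14 neutrophil genes, 0 passed in either comparison in edgeR, with 0 and 2 lower at an unadjusted p under 0.05. The neutrophil medians were 0.38 and 1.34, with 1 and 2 of 7 folds below 0. For lymphocytes, Cd3d had 0 counts in every library, Cd3e and Cd3g at most 24, and 0 of 7 tested of 15 passed in edgeR, with 2 and 0 at an unadjusted p under 0.05. For blood monocytes, Ly6c2 was at 1.155 to 2.427 CPM in CgA-KO/PS19 and 3.476 to 5.545 CPM in PS19, with an edgeR adjusted p of 0.0054, and was the only 1 of 3 tested to pass there, while Ccr2 had -0.05 and Plac8 had at most 11 counts. The summed level of the platelet list was 1.14 to 4.53 CPM in WT, 4.21 to 5.34 CPM in PS19 and 3.35 to 5.79 CPM in CgA-KO/PS19, and that of the neutrophil list 4.56 to 9.75, 4.35 to 9.82 and 4.01 to 9.05 CPM. The lymphocyte list summed to 7.58 to 30.4 CPM in WT, 25.99 to 65.8 CPM in PS19, with overlap, and 36.8 to 53.5 CPM in CgA-KO/PS19. Its medians were -0.79 and -0.06, with 7 and 4 of 7 folds below 0. The blood monocyte list summed to 2.28 to 4.57 CPM in WT, 4.06 to 5.99 CPM in PS19 and 1.42 to 2.86 CPM in CgA-KO/PS19. The last 2 ranges did not overlap, but most of the sum in both genotypes was Ly6c2. The share of all genes that separate in this way was not computed. The part of these cells in the haemoglobin values was not tested.

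Genes of the vessel wall were measured as well. Of 14 endothelial genes, all tested, 1 passed in each comparison, Vwf, the gene of von Willebrand factor. It was at 8.67 to 18.95 CPM in WT, 16.9 to 30.5 CPM in PS19 and 9.82 to 17.8 CPM in CgA-KO/PS19, with log2 fold changes of -0.77 and -0.71 and edgeR adjusted p-values of 0.030 and 0.029. Cldn5, Pecam1 and Cdh5 had log2 fold changes of -0.35 to 0.04 with adjusted p-values of 0.44 to 0.85. The list medians were -0.19 and -0.09, with 14 and 9 of 14 folds below 0, and the summed level was 294.3 to 365.9 CPM in WT, 386.5 to 490.9 CPM in PS19 and 372.5 to 431.6 CPM in CgA-KO/PS19. Of 10 genes of pericytes and vascular smooth muscle 0 passed in either comparison, and Pdgfrb, Rgs5 and Kcnj8 had log2 fold changes of -0.26, -0.04 and -0.24 for WT. For CgA-KO/PS19 these were -0.15, 0.58 and -0.17.

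**Figure D5:**
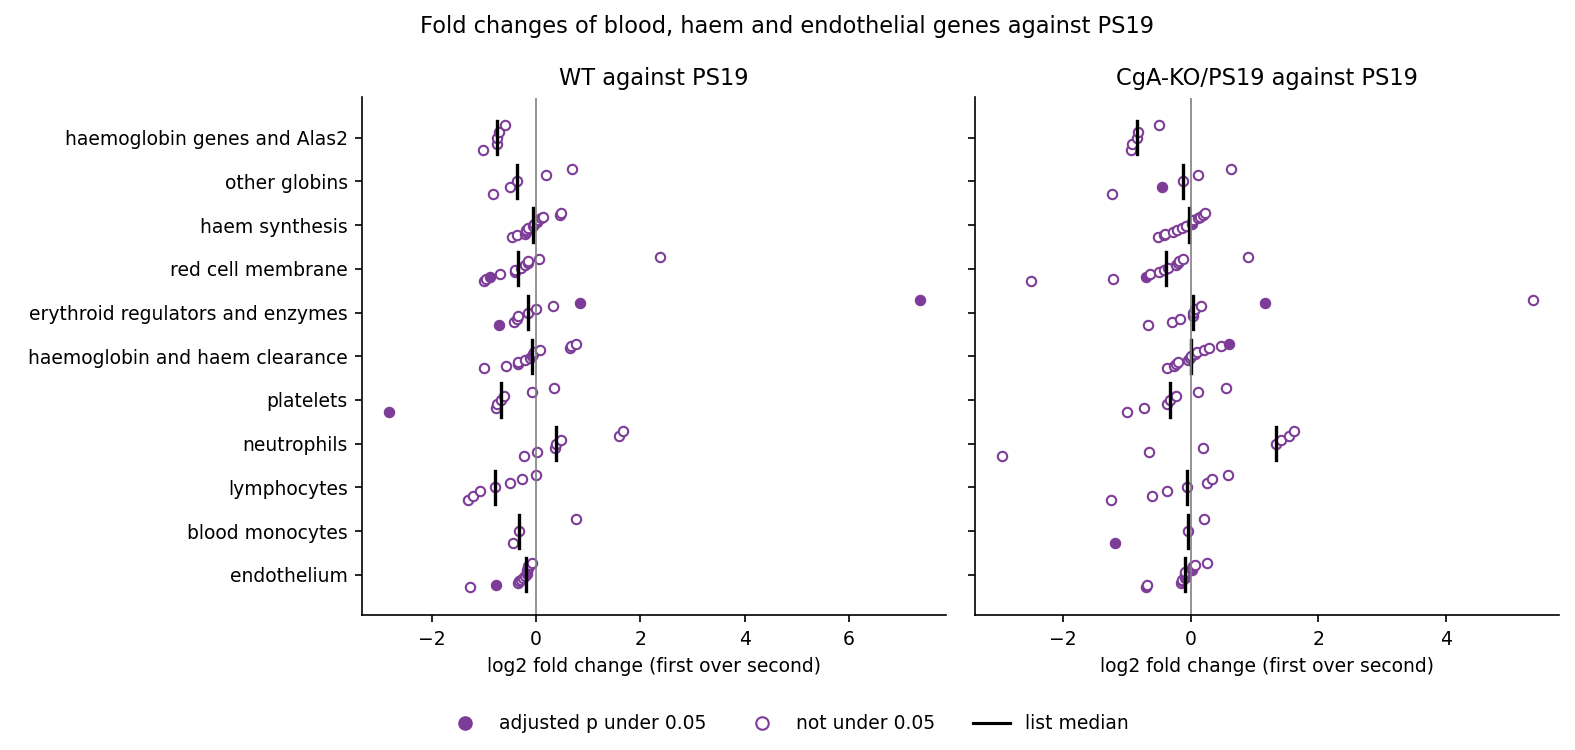
Log2 fold changes of every tested gene of 11 lists in WT (left) and CgA-KO/PS19 (right) against PS19, filled where the adjusted p was under 0.05, with a bar at each list median. The haemoglobin genes and Alas2 lie together below 0. Medians of other lists also lie below 0, such as platelets (-0.67 and -0.33) and red cell membrane (-0.35 and -0.38), left and right. Neutrophil medians lie above 0 (0.38 and 1.34), and those of haem synthesis lie close to 0. All 14 endothelial folds lie below 0 on the left, with a median of -0.19. The fitted value of Car1, which rests on a PS19 group at 0 counts, lies far to the right.

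Markers of other tissues and cell types also differed between genotypes. Striatal markers were higher than in PS19 for 10 of 10 genes in WT and 8 of 10 in CgA-KO/PS19, with a summed level of 899.7 to 2314 CPM in WT, 125.7 to 151.6 CPM in PS19 and 163.2 to 1416 CPM in CgA-KO/PS19. Choroid plexus markers were higher for 5 of 8 genes in WT and 1 of 8 in CgA-KO/PS19, led by Ttr, transthyretin, which was at 3.24 to 1023 CPM in WT and at most 1.38 CPM in PS19. Of 10 meningeal genes 1 passed as higher (Dcn) and 1 as lower (Ptgds) in WT, and 1 as lower (Foxc2) in CgA-KO/PS19. In both comparisons 9 of 10 meningeal folds were below 0, and 5 of 10 genes were lower at an unadjusted p under 0.05 in edgeR. The medians were -0.76 and -0.57, beside -0.76 and -0.84 for the haemoglobin genes and Alas2. Summed meningeal levels were 121.9 to 330.3, 229.5 to 554.9 and 126.4 to 355.9 CPM in the order WT, PS19, CgA-KO/PS19. With genotype means removed, all 10 meningeal genes had a negative r with the mean of the 5 genes, from -0.73 for Lum to -0.27 for Slc6a13. Cortical neuron genes Snap25, Syt1 and Rbfox3 were abundant in all libraries, and of 10 neuronal genes Gad2 passed as higher in WT and Gad1 as lower in CgA-KO/PS19. Of 8 genes each, 1 astrocyte gene was lower in WT (Aldh1l1) and 2 higher in CgA-KO/PS19 (Aqp4 and Slc1a3), 1 oligodendrocyte gene was higher in CgA-KO/PS19 (Mobp), and 0 of 8 microglial genes passed in edgeR, with 0 and 2 at an unadjusted p under 0.05. The part of the dissected region or of the meninges in the haemoglobin values was not tested.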

How the data were processed

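Poly(A) RNA of the prefrontal cortex of 17 mice was sequenced by the authors as paired 100-base reads. The submitters' processing notes name FastQC, Trimmomatic 0.39, STAR 2.7.10b, StringTie 1.3.6, DESeq2 1.42.0 and mm10, and the strand setting and annotation release are not given in the sources used here. The deposited table holds raw counts per gene, written by a StringTie script that turns coverage into counts, and the low values show about 3 counts for each fragment, so p-values rest on the spread between libraries and intervals for counting error were not computed. Groups came from the labels, which do not say more on how replicates were taken.

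From the counts, genes were filtered with edgeR 4.0.16 (R 4.3.3) and fitted to all 17 libraries by genotype with the quasi-likelihood test, Benjamini-Hochberg adjustment over 23062 genes and a threshold of 0.05. DESeq2 1.42.0 and limma voom 3.58.1, fits with a replicate block or with the level of Ddx3y, other filters and scalings, and fits without single libraries were alternatives. Ratios were tested by exact permutation of libraries and correlations with 100000 resamples (scipy 1.17.1). The scripts were tested on simulated data. The 5 genes and all lists were chosen with earlier results of these data known, and every gene of the 5 is described. From the other lists defining members and most genes past the threshold are named, some of them chosen after their values were seen. Results of some listed genes are not reported here.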

Additional observations from a re-analysis of the deposited data

Results flagged for a closer look

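PS19 replicate 1 stood far above the other 5 PS19 libraries for 4 of the 5 genes, measured by its gap to the next library over the range of the genotype. Its levels were 212.1 CPM for Hba-a1, 184.9 CPM for Hba-a2, 191.9 CPM for Hbb-bs and 8.36 CPM for Alas2. These genes rise and fall together, so the 4 values are not independent. WT replicate 4, the shallowest library, had the highest log2 ratio of Hba-a2 to Hba-a1 in WT, at -0.12 (-0.1199). CgA-KO/PS19 replicate 6 had the highest log2 ratio of Alas2 to summed haemoglobin in its genotype, at -5.855. In all 27 groups were examined and 6 held such a library. The rule marks about 1 in 20 groups by chance if the values are independent and normally distributed. Gene levels were taken in CPM and not on the log2 scale, so that rate is not known to hold here.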

How the results depend on the processing

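The number of the 5 genes called, 0 in each comparison, became 4 in WT against PS19 with the Ddx3y covariate and 4 within replicates 4 and above, and in CgA-KO/PS19 against PS19 it became 4 with the Ddx3y covariate, 2 with DESeq2, 2 by the rule of the Methods and 0 to 2 when single libraries were left out (2 without WT replicate 4). Most same-numbered libraries did not deviate together, with 2 of 16 correlations above 0.1 (range -0.20 to 0.42), the highest between replicate 3 of WT and of CgA-KO/PS19. These correlations do not decide whether libraries share something by number, as replicates 1 to 3 of every genotype had Ddx3y. With a replicate block 1 gene was called in WT (Hbb-bt, edgeR adjusted p = 0.046) and 2 in CgA-KO/PS19 against PS19 (Hba-a1 and Hba-a2, 0.040 and 0.043), where 147 and 266 of 23062 genes were called lower, against 450 and 974 without the block. The replicate block also turned the CgA-KO/PS19 against WT difference of the Hbb-bt to Hbb-bs log2 ratio to 0.0176 and the differences of the Alas2 ratio to 0.0363 in WT against PS19 and -0.0934 in CgA-KO/PS19 against WT. Every fold change against PS19 stayed below 0 under all alternatives run.

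The differences that changed sign passed the threshold under none of the alternatives run. In CgA-KO/PS19 against WT, log2 fold changes within replicates 4 and above were 0.19 for Hba-a1, 0.17 for Hba-a2 and 0.79 for Alas2, and the Ddx3y covariate gave 0.029 for Alas2. With single libraries left out they ran from -0.33 to 0.02 for Hba-a1, -0.32 to 0.028 for Hba-a2, -0.045 to 0.39 for Hbb-bt and -0.43 to 0.013 for Alas2. For the Alas2 ratio, adding 3 to each count gave 0.0651, 0.00172 and -0.0634 in WT against PS19, CgA-KO/PS19 against PS19 and CgA-KO/PS19 against WT, and the ranges without single libraries were -0.215 to 0.180, -0.120 to 0.0409 and -0.202 to 0.194. Those ranges were -0.0110 to 0.0153 (WT against PS19) and -0.00416 to 0.0221 (CgA-KO/PS19 against WT) for Hba-a2 to Hba-a1, -0.166 to 0.0176 for Hbb-bt to Hbb-bs (CgA-KO/PS19 against WT) and -0.0321 to 0.181 for summed α to β (WT against PS19). Without both PS19 replicate 1 and WT replicate 4, a choice made after the data were seen, the Hba-a2 to Hba-a1 difference in WT was -0.0108, that of α to β 0.1985 and the Alas2 differences were 0.175 in WT against PS19 and -0.202 in CgA-KO/PS19 against WT. The cause of these changes was not tested. Depth limits Alas2 most, at 9 counts in WT replicate 4.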
